A study of Homo sapiens with 2 samples.

Results

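The 39 human HOX genes encode homeodomain transcription factors and sit in 4 clusters, HOXA on chromosome 7, HOXB on chromosome 17, HOXC on chromosome 12 and HOXD on chromosome 2. They were chosen by symbol (HOX, a cluster letter and a paralogue number) among 20098 protein-coding genes of the GENCODE annotation in hg19 coordinates, by a rule that reads the symbol and no peak value. A promoter was taken as 1000 bp on either side of any annotated transcription start site (TSS), and a gene with at least 1 MYBL2 peak overlapping such a window is called bound below. The clusters, each running from the lowest start to the highest end of its HOX genes, held 89 of the 66954 MYBL2 peaks.

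To map MYBL2 on chromatin, the study sequenced 1 library from an anti-MYBL2 immunoprecipitation and 1 input library without antibody, both from A673, an established Ewing sarcoma cell line that carries the EWSR1-FLI1 fusion, and both as 100-bp single-end reads. The antibody was a monoclonal rabbit antibody that the labels describe as anti-MYBL2 and the study's methods as directed against the activated protein. With 1 library per group there was no replicate, so no difference below carries a p-value, and the 95% intervals (exact binomial for shares, Poisson for fragment counts and densities) cover counting error only. The files used here hold no expression values, so neither the HOX transcripts nor the identity of the cells was checked.

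HOX genes of a cluster are ordered along the chromosome as they are used along the body axis. Paralogue groups 1 to 3 pattern the hindbrain and anterior trunk, middle groups the trunk, and groups 9 to 13 the posterior trunk, limbs and urogenital tract. Genes with the same number in different clusters are paralogues. High expression of posterior HOXD genes is a known property of Ewing sarcoma. MYBL2 (B-MYB) is a transcription factor of proliferating cells that joins the MuvB complex to activate genes of the G2 and M phases, where the complex reads the CHR element and MYB proteins read the AACNG site.

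The windows that carried the strongest HOX peaks are shown first, because the summit is the only position for which the peak list gives a height. Each is the 101 bp centred on a summit, read from GRCh37, which shares its coordinates with hg19, and printed 5′ to 3′ on the plus strand in lower case. Capitals mark the letters of a searched motif. They come from the 3 strongest peaks of each cluster, leaving out windows with an untranslated or coding exon and some that are not reported here.
HOXD, 120 bp upstream of a HOXD8 start, chr2:176994252-176994352: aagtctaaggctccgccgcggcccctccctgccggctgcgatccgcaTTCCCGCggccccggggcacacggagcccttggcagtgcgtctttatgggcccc
HOXD, 269 bp upstream of a HOXD11 start, chr2:176971689-176971789: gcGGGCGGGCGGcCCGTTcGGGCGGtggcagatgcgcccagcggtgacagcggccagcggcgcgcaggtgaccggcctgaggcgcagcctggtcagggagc
HOXD, intron of HOXD3, chr2:177023699-177023799: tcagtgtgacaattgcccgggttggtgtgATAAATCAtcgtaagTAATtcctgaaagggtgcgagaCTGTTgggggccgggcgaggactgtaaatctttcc
HOXC, 271 bp downstream of a HOXC9 start, chr12:54389514-54389614: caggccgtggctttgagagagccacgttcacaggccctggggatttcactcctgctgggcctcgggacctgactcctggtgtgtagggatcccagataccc
HOXC, 1384 bp downstream of a HOXC4 start, chr12:54412049-54412149: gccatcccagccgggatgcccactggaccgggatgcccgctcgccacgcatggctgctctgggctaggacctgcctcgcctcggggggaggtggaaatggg
HOXB, intron of HOXB-AS1, chr17:46624434-46624534: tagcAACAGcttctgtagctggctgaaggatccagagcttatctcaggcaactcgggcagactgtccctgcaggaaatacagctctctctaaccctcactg
HOXA, downstream of HOXA2, chr7:27139870-27139970: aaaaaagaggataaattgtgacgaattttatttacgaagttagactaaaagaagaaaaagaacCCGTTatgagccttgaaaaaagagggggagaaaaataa

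The HOXD8 window holds 11 CpG dinucleotides and 1 E2F site, printed in the reverse orientation of GCGGGAA. The HOXD11 window holds 14 CpG dinucleotides, 3 GC boxes (GGGCGG) and 1 MYB site. The HOXD3 intron window combines a MYB site with a HOX-PBX site (TGATTNAT) and a homeodomain core (TAAT). Neither HOXC window held a searched motif, and the HOXB-AS1 window holds 1 MYB site. The HOXA window, with 3 CpG dinucleotides and a GC content of 30.7%, holds 1 MYB site.

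Of the 39 HOX genes, 25 were bound (64.1%, interval 47.2 to 78.8), beside 59.4% of all protein-coding genes, so the family as a whole lay near the background. The clusters were unlike each other. All 9 HOXC genes were bound (100%, interval 66.4 to 100), as were 8 of 10 HOXB genes (80.0%, 44.4 to 97.5) and 7 of 9 HOXD genes (77.8%, 40.0 to 97.2). In HOXA, 1 of 11 genes was bound (9.09%, 0.230 to 41.3). The interval of HOXA lay below those of HOXB and HOXC and overlapped that of HOXD by its upper end, whereas the intervals of HOXB, HOXC and HOXD overlapped each other widely. The HOXA count depended on the window: with 5000 bp upstream to 1000 bp downstream of a TSS it was 6 of 11, beside 8 in HOXB, 9 in HOXC and 8 in HOXD. It was 0 with a window of 500 bp, with the summit required inside the window, or with peaks of at least 5-fold or a −log10 q of at least 5, and HOXA had the fewest bound genes under each of these settings. The HOXC count fell to 6 of 9 with peaks of at least 5-fold, beside 7 of 10 in HOXB and 6 of 9 in HOXD. It was 8 with the 500-bp window, with a −log10 q of at least 5 or with canonical TSSs only. The 14 genes without a promoter peak included HOXA2 to HOXA7, HOXA9, HOXA10 and HOXA13 in HOXA, HOXB1 and HOXB5 in HOXB, and HOXD1 and HOXD12 in HOXD. The list gives no signal outside peaks, so for these genes it says only that no peak was called. Genes of a cluster can also share a start window or a peak and are not separate observations.

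**Figure D1:**
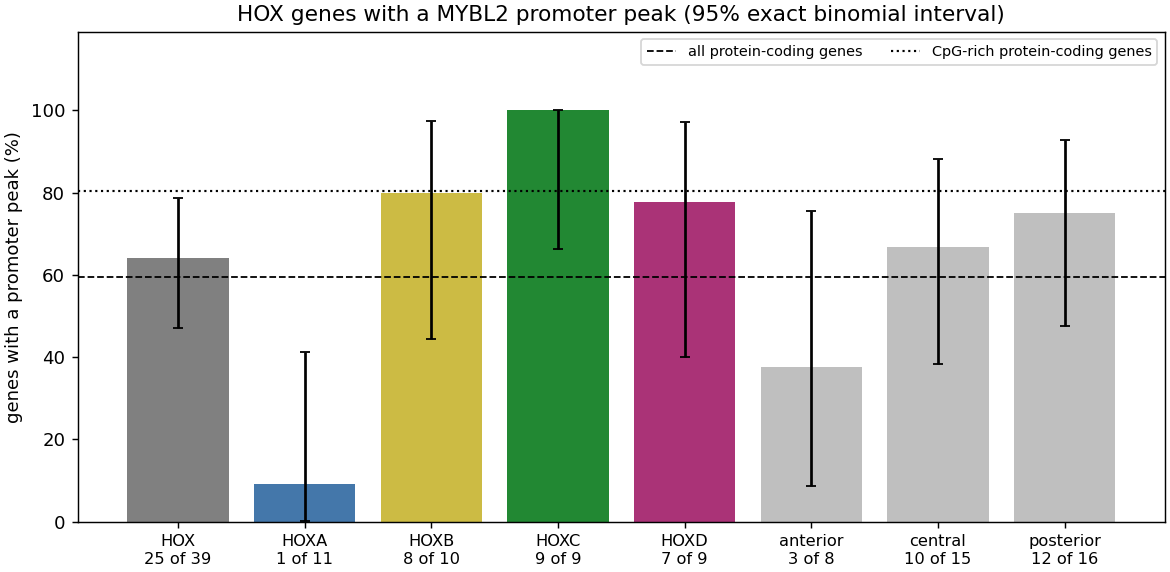
Share of HOX genes with a MYBL2 promoter peak (y axis, percent) for the family, each cluster and each position class (anterior, groups 1 to 3; central, 4 to 8; posterior, 9 to 13), with 95% exact binomial intervals as bars and the number bound under each column. The dashed line is the 59.4% of all protein-coding genes and the dotted line the 80.5% of CpG-rich ones; HOXA stands at 9.09% and HOXC at 100%.

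MYBL2 promoter peaks were commoner at CpG-rich genes, and the CpG content of HOXA was not the lowest of the 4 clusters. A promoter was called CpG-rich where the observed over expected CpG ratio within 1000 bp of the canonical TSS was at least 0.6. Of CpG-rich protein-coding genes 80.5% were bound, and of the 27 CpG-rich HOX genes 16 were bound (59.3%, interval 38.8 to 77.6). HOXA held 9 of these 27 genes, and 1 of the 9 was bound (11.1%, 0.281 to 48.2), beside 6 of 8 in HOXD (75.0%), 5 of 5 in HOXC and 4 of 5 in HOXB. The median ratio was 0.747 in HOXA, between those of HOXC (0.636) and HOXD (0.813), with HOXB at 0.575.

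The contrast within a paralogue group is shown by HOXA13 and HOXD13, both posterior genes of limb and urogenital development. HOXD13 had a peak with its summit 54 bp downstream of the TSS, and the nearest peak to the HOXA13 canonical TSS lay 2049 bp away. RefSeq promoter sequences were at hand for 20 of the 39 genes, these 2 among them. The 250 bases before each start (GRCh38.p14) are printed on the gene's own strand, with every CpG in capitals.
HOXD13 upstream, chr2:176092471-176092720, plus strand: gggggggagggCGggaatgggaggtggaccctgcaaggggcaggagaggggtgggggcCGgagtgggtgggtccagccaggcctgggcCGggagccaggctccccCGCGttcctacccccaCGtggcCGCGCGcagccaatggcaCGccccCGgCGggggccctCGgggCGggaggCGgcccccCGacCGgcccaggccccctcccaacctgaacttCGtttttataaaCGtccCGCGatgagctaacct
HOXA13 upstream, chr7:27200092-27200341, minus strand: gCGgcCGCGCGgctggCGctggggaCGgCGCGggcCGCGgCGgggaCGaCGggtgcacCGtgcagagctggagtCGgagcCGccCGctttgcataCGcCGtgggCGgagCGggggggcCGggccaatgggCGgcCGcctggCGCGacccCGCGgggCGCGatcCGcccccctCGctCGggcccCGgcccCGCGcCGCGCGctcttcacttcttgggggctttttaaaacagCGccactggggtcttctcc

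The HOXA13 stretch held 40 CpG dinucleotides at a GC content of 78%, and the HOXD13 stretch held 21 at 74%. The gene without a promoter peak had the higher CpG count of this pair. Whether CpG content bears on the promoter peaks of this pair or of the clusters was not tested.

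In HOXD, 9 peaks of 166 to 23800 bp overlapped HOX promoter windows, and the 7 bound genes had 4 distinct best peaks. HOXD8, HOXD9 and HOXD3 all overlapped a single peak of 23800 bp (chromosome 2, 176984269 to 177008068), the widest of all 66954 peaks in the list. Its summit lay in an intron of the antisense RNA gene HOXD-AS2, 120 bp upstream of a HOXD8 start. There, 80 piled-up fragments (interval 63.4 to 99.6) gave a fold enrichment of 18.2 over the background of 3.46 fragments derived for that summit. That height was measured next to HOXD8 and not at the other starts, since the summit was 6855 bp downstream of the HOXD9 start and 7038 bp upstream of the nearest HOXD3 start. The peak covered all of the HOXD8 and HOXD9 gene bodies. HOXD3 had another promoter peak with a fold enrichment of 8.67 whose summit lay 167 bp downstream of a HOXD3 start.

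HOXD10 and HOXD11, neighbouring posterior genes, shared a peak of 5233 bp (176967650 to 176972882) that reached a fold enrichment of 13.5, with 59 piled-up fragments (interval 44.9 to 76.1). Its summit was 269 bp upstream of a HOXD11 start and 1779 bp upstream of the nearest HOXD10 start. HOXD10 overlapped 5 peaks with its promoter windows, the highest count in HOXD, among them 1 of 6491 bp that reached a fold enrichment of 4.78. Peaks covered 93.9% of the HOXD10 gene body and 94.1% of that of HOXD11. HOXD13, at the posterior end, had a 1370-bp peak that stood 7.25-fold above background, at 34 fragments (interval 23.5 to 47.5). HOXD4 had the weakest promoter peak of the cluster, 166 bp wide and 3.82-fold above background, at 16 fragments (interval 9.15 to 26.0). HOXD12 lay between the HOXD13 and HOXD11 peaks, with the nearest peak 1822 bp from its canonical start, and HOXD1 at the anterior end was 13.4 kb from the nearest.

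In HOXC, every gene had a promoter peak, most of them narrow. The strongest, 12.5-fold above background at 70 fragments (interval 54.6 to 88.4), was a 1886-bp peak (chromosome 12, 54388815 to 54390700). It was shared by upstream alternative starts of HOXC9 and HOXC6. The peak at the canonical HOXC9 start, with its summit 418 bp upstream, reached 8.06 from 37 fragments. The canonical HOXC6 start was 1538 bp from the nearest peak. HOXC4 overlapped a 2293-bp peak of 8.19-fold whose summit lay 1384 bp downstream of its nearest, upstream start, outside the promoter window. The peak at the canonical HOXC4 start, with its summit 68 bp downstream, reached 3.71 from 20 fragments. HOXC13, the posterior end of the cluster, reached 7.34 from 36 fragments, with the summit 373 bp upstream of its TSS. HOXC5 reached 6.63, HOXC11 5.37, HOXC10 4.74, HOXC8 3.88 and HOXC12 3.70. The peaks of HOXC10, HOXC8 and HOXC12 rested on 17 to 21 fragments. 2 annotated read-through genes overlap HOXC members, so a peak in an intron of HOXC4 or HOXC6 also lies in those gene models.

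In HOXB, the posterior gene HOXB13, which stands apart from the rest of its cluster and is known from prostate development, had the strongest promoter peak. It was 853 bp wide and reached 10.8-fold at 49 fragments (interval 36.3 to 64.8), with its summit 222 bp upstream of the only annotated start. HOXB8 reached 6.51 and HOXB7 6.29, in neighbouring peaks of 814 and 604 bp. The HOXB7 summit lay 921 bp upstream of the canonical start. Another peak, with its summit 83 bp upstream of that start, reached 4.65 from 34 fragments. The HOXB8 peak lay at an alternative start, with its summit in the 3′ UTR, 2256 bp downstream of the canonical start. The peak at the canonical HOXB8 start, with its summit 220 bp upstream, reached 3.38 from 15 fragments. HOXB2, a gene of hindbrain patterning, reached 5.59, and 5 peaks overlapped its promoter windows. That summit lay 1694 bp downstream of the canonical HOXB2 start. Peaks with summits 460 bp downstream and 151 bp upstream of the canonical start reached 5.27 and 4.09. HOXB3 and HOXB6 shared a peak with a fold enrichment of 5.22, which lay at an upstream start of HOXB3, its canonical start being 2315 bp from the nearest peak. HOXB4, a regulator of blood stem cells, reached 5.12 with the summit 10 bp upstream of its TSS. HOXB9 had the weakest best peak of any bound HOX gene, only 3.03-fold above background at 19 fragments (interval 11.4 to 29.7).

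In HOXA, the promoter peak of HOXA11 was 198 bp wide and reached 3.59-fold at 15 fragments (interval 8.40 to 24.7). Its summit, in the HOXA11 intron, lay 1097 bp downstream of the nearest start, outside the promoter window that the peak's edge entered. Among bound protein-coding genes, 4.11% had a weaker best peak than HOXA11, against 91.8% for HOXD8, 76.6% for HOXC9 and 67.4% for HOXB13.

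**Figure D2:**
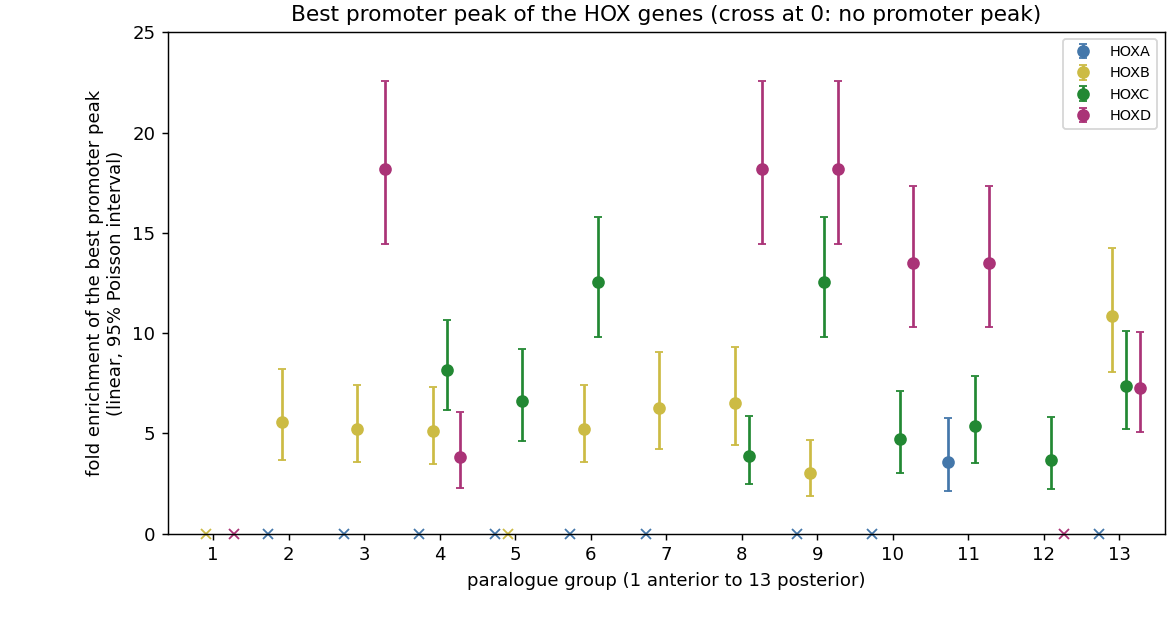
Fold enrichment at the summit of the best promoter peak (y axis, linear) for the HOX genes named here, by paralogue group (x axis) and coloured by cluster, with 95% Poisson intervals that hold the background fixed. Crosses at 0 are genes named here that had no promoter peak; HOXD3, HOXD8 and HOXD9 share one point value, 18.2, because they overlap the same peak.

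Over the 25 bound genes the best fold enrichment ranged from 3.03 to 18.2 with a median of 6.51, below the median of 8.67 over the 11941 bound protein-coding genes. They rested on 20 distinct peaks. When only summits at 5-fold or more were counted, 19 of 39 HOX genes were bound (48.7%), beside 49.6% of protein-coding genes. By cluster the median was 13.5 in HOXD, from 4 distinct best peaks, 6.63 in HOXC and 5.41 in HOXB. Some of these heights were measured outside the promoter window: 18.2 for HOXD9 and HOXD3, 13.5 for HOXD10 and, in HOXC, 8.19 for HOXC4. Peaks with the summit inside the window reached 8.67 at HOXD3, 8.54 at HOXD10 and 3.71 at HOXC4, and HOXD9 had none.

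To compare anterior with posterior genes, the bound genes were counted by position. Of the 16 posterior genes 12 were bound (75.0%, interval 47.6 to 92.7), of the 15 central genes 10 (66.7%, 38.4 to 88.2) and of the 8 anterior genes 3 (37.5%, 8.52 to 75.5). The posterior share exceeded the anterior share by 37.5 percentage points, and the Newcombe 95% interval of the difference, -2.74 to 65.5, included 0. Position and cluster were mixed in this count, since HOXC has no anterior gene. Within HOXA 0 of 3 anterior and 1 of 4 posterior genes were bound, within HOXB 2 of 3 and 2 of 2, and within HOXD 1 of 2 and 4 of 5. Without HOXA, a choice made after the values were seen, 3 of 5 anterior, 10 of 11 central and 11 of 12 posterior genes were bound.

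Over the whole span of each cluster, promoters included, MYBL2 peaks were denser in all 4 clusters than in the genome, and the extent differed. The genome held 2.36 peaks per 100 kb, with 1.23% of its bases inside a peak. HOXD (98.2 kb) held 25 peaks, or 25.5 per 100 kb (interval 16.5 to 37.6), and HOXC (117.2 kb) held 28, or 23.9 (15.9 to 34.5). HOXB (200.2 kb) held 30, or 15.0 (10.1 to 21.4). HOXA (107.1 kb) held 6, or 5.60 (2.06 to 12.2), an interval that included the densities of the genome and of chromosome 7 (2.48). The densities of chromosomes 2, 12 and 17 were 2.08, 3.21 and 3.67, all below the intervals of their clusters.

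By bases covered the clusters stood further apart. Peaks covered 51.7% of HOXD, 12.7% of HOXC, 10.1% of HOXB and 3.10% of HOXA. Of 28079 tiles of 100 kb across the genome, 8 were covered more than HOXD (0.0285%), 1.68% more than HOXC, 2.50% more than HOXB and 10.2% more than HOXA. The HOXD value rested in part on the 23800-bp peak, without which 27.5% of the cluster was covered. The tiles were not matched to the clusters in gene or CpG content.

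**Figure D3:**
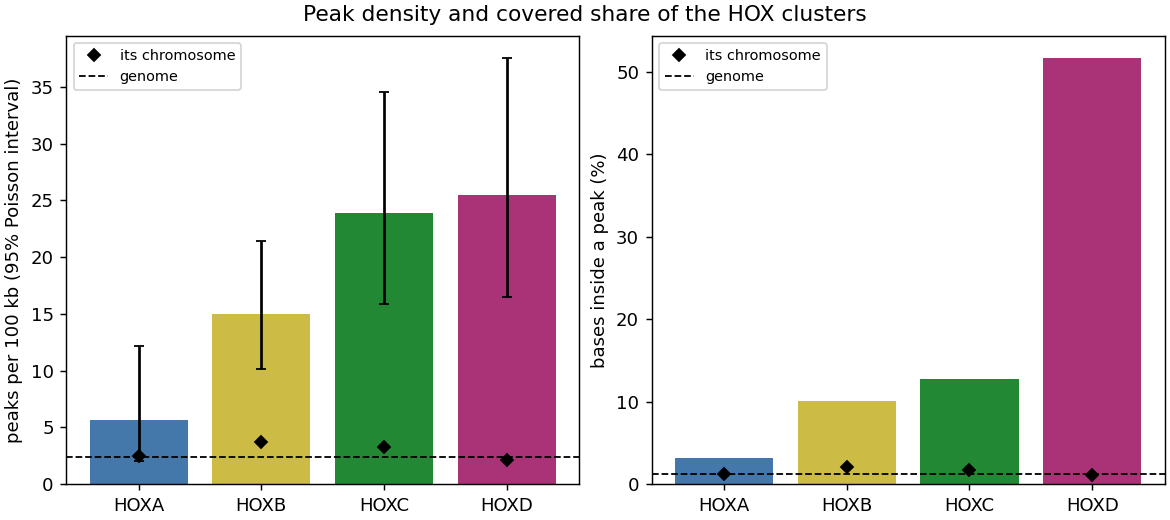
Left, MYBL2 peaks per 100 kb in each HOX cluster with 95% Poisson intervals; right, percent of bases inside a peak. Diamonds give the chromosome that holds the cluster and the dashed line the genome (2.36 peaks per 100 kb and 1.23% of bases); HOXD is at 51.7% covered and HOXA at 3.10%.

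Peaks within HOXD formed an almost unbroken block. Joining peaks separated by at most 1000 bp gave a run of 13 peaks over 46100 bp (176967650 to 177013749), from upstream of HOXD11 through HOXD10, HOXD9 and HOXD8 toward HOXD4, of which 90.4% lay inside a peak. By length it ranked 14 of 41400 such runs in the genome. The segment spanned by the group 9 to 13 genes was 77.2% covered in HOXD, and the rest of that cluster 39.3%. In the other clusters the posterior segment was not the more covered one by a comparable margin: 3.27% against 3.0% in HOXA, 8.03% against 12.5% in HOXB and 10.6% against 15.3% in HOXC. The longest stretch without a peak was 15.6 kb in HOXD, at its anterior end by HOXD1, and 18.4 kb in HOXC. It was 68.7 kb in HOXA (27154941 to 27223682), which takes in HOXA4 to HOXA10. In HOXB it was 91.4 kb (46704143 to 46795584), most of the interval between HOXB9 and HOXB13.

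**Figure D4:**
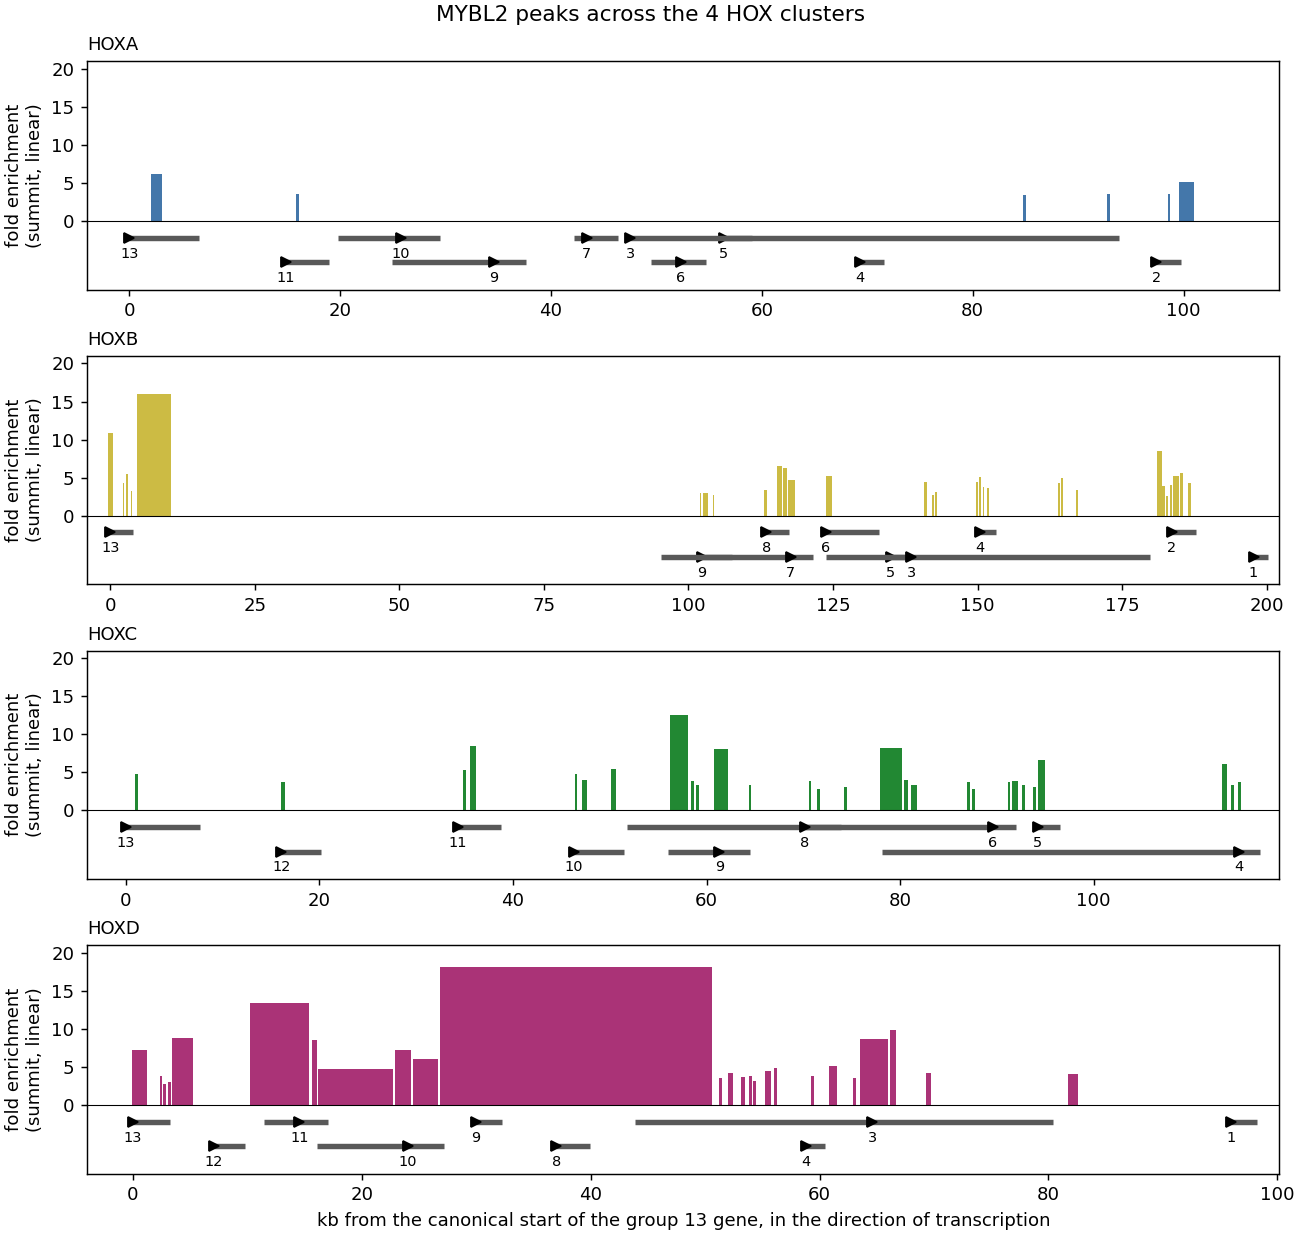
MYBL2 peaks across the 4 clusters, each drawn from posterior (13) to anterior in the direction of transcription; x axis, kb from the canonical start of the group 13 gene, y axis, fold enrichment at the summit. Blocks are peaks at their true width (at least 0.25 kb drawn) and constant height, grey bars are the models of the genes named here, and arrowheads their canonical starts; the 23800-bp block lies over HOXD9 and HOXD8, and HOXA holds 6 peaks.

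The strongest peaks of the clusters were not all at HOX promoters. In HOXD a peak of 9.88, in an intron of HOXD3 with its summit 1714 bp downstream of the nearest start, overlapped no HOX promoter window. The strongest of HOXB, with a fold enrichment of 16.0 from 74 fragments, spanned 5910 bp (chromosome 17, 46795585 to 46801494) at the start of PRAC1, a small gene of prostate and colon, 6260 bp from the HOXB13 start. After HOXB13 came a peak of 8.50 in an intron of HOXB-AS1. In HOXC a peak of 8.40 overlapped the start of HOTAIR, a long non-coding RNA gene that runs antisense to HOXC11, with its summit in introns of both. The strongest of the 6 HOXA peaks, at 6.23 from 30 fragments, had its summit in the 3′ UTR of HOXA13 beside the start of HOTTIP, followed by one that reached 5.15 from 33 fragments and lay between HOXA2 and HOTAIRM1. The next, at 3.59 from 15 fragments, lay in the HOXA2 intron, 1214 bp downstream of the nearest start. The first and second of these overlapped promoter windows of HOTTIP and HOTAIRM1, long non-coding RNA genes at the ends of the cluster, and no HOX promoter window.

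Of the 89 peaks, 39 overlapped a HOX promoter window. By annotation, 41 summits lay in introns, 23 between genes, 10 in 3′ UTRs, 8 in coding exons, 4 in exons of long non-coding RNAs and 3 in 5′ UTRs. In HOXD 14 of 25 summits lay between genes, and in HOXB 6 of 30. A fold enrichment of at least 5 was reached by 30 of the 89 peaks (33.7%), beside 24.0% of all peaks. A width of at least 3 kb was reached by 4 (4.49%), beside 0.914% of all peaks: 3 in HOXD and the PRAC1 peak in HOXB. The background behind the peaks, a value that enters the fold enrichment, had medians of 3.71 to 4.32 fragments in the 4 clusters, beside 4.25 over all peaks. At single peaks of the clusters it ranged from 3.45 to 6.53. Its part in the differences between clusters was not tested, and no value is given where no peak was called.

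**Figure D5:**
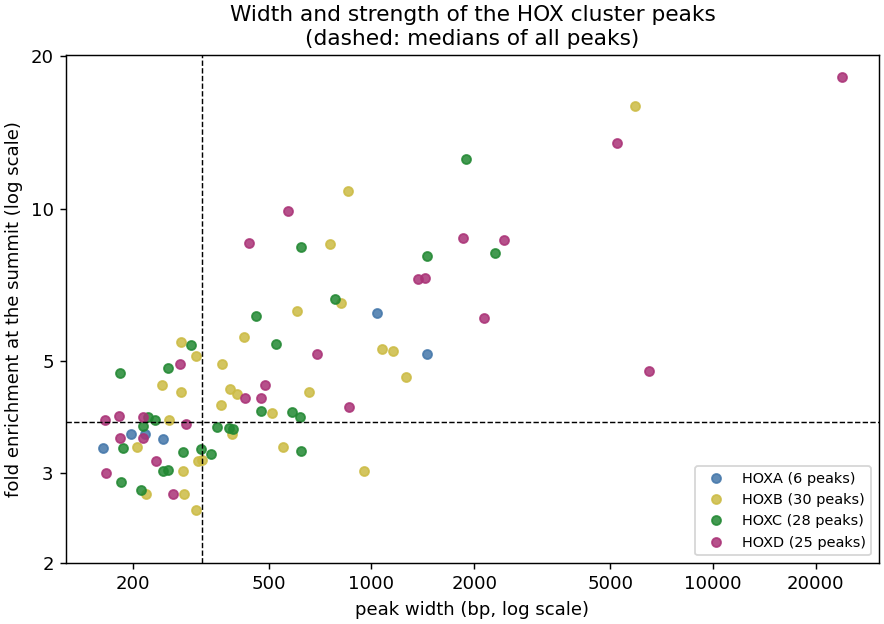
Width (x axis, bp, log scale) and fold enrichment at the summit (y axis, log scale) of the 89 peaks inside the HOX clusters, 1 point per peak, coloured by cluster. Dashed lines are the medians of all 66954 peaks, 319 bp and 3.79; the HOXD peaks of 23800 and 5233 bp and the HOXB peak of 5910 bp lie at the upper right.

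Peaks also lay beyond the posterior end of HOXD. Within 20 kb beyond HOXD13 there were 8 peaks, the strongest of them at EVX2, a homeobox gene next to the cluster, with a fold enrichment of 22.0 from 97 fragments in a 2438-bp peak. In the same window there were 2 peaks beyond HOXA13, and 1 each beyond HOXB13 and HOXC13, and on the anterior side 0 peaks in any cluster. EVX1, the paralogue beside HOXA, had no promoter peak. In a list of 14 genes beside or between the HOX genes 10 were bound (71.4%, interval 41.9 to 91.6), beside 59.4% of protein-coding genes, a share inside that interval. The best peak reached 5-fold or more in 10 of the 14, beside 49.6% of all protein-coding genes. Among bound genes only, all 10 reached this height, beside 9970 of the 11941 bound protein-coding genes. CALCOCO1 reached 27.3 on the HOXC side, and CBX5 and HNRNPA1, which share a start region, 17.7.

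Of 18 long non-coding RNA genes of the clusters, 11 were bound (61.1%, interval 35.7 to 82.7), beside 22.9% of all long non-coding RNA genes in the annotation. The listed genes start among HOX promoters and in part share their windows, so this share is not separate from that of the HOX genes. HOXD-AS2 (18.2) and HOXC-AS2 (12.5) overlapped the peaks already given for HOXD8 and HOXC9, whereas HOXB-AS1 (8.50) and HOTAIR (8.40) had peaks that overlapped no HOX promoter window. In HOXA, 4 of the 6 listed long non-coding RNA genes were bound (HOTTIP, HOTAIRM1, HOXA-AS2 and HOXA11-AS), the last by the HOXA11 peak. Of 6 listed microRNA genes that lie among HOX genes 5 were matched in the annotation, and 1 was bound (20.0%, beside 11.8% of all microRNA genes): MIR615, at the HOXC5 peak.

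Motifs were searched within 50 bp of each summit on both strands. Their shares in the HOX peaks lay mostly near those of all peaks. A MYB site (AACNG) stood in 39 of 89 windows (43.8%, interval 33.3 to 54.7), beside 44.1% of all peaks, and a CHR element (TTTGAA or TTCGAA) in 5 (5.62%, 1.85 to 12.6), beside 9.68%. A CCAAT box stood in 17 (19.1%, 11.5 to 28.8), beside 13%, and a GC box (GGGCGG) in 10 (11.2%, 5.52 to 19.7), beside 7.69%. An E2F site (GCGGGAA) stood in 4 (4.49%, 1.24 to 11.1), beside 1.15%, and 3 of the 4 were in HOXD. The homeodomain core TAAT stood in 25 (28.1%, 19.1 to 38.6), beside 47.8%, the HOX-PBX site in 1 (1.12%), beside 1.88%, and a CTCF core in 5 (5.62%), beside 7.26%. The CTCF core was counted where the window held AGGGGGC, its variant AGGTGGC, or a form with adenine after AG, spelled AGAGGGC in one case and AGATGGC in the other. An ETS core (CCGGAAGT) stood in 0 of 89 windows, which allows up to 4.06%, beside 0.705%. The HOX windows had a median GC content of 57.4%, beside 45.5% over all peaks, and its part in the lower share of TAAT was not tested.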

How the data were processed

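The authors aligned the reads to hg19 and called peaks on the ChIP against the input library (per the submitters' processing notes, Bowtie2 2.1.10 and MACS2 2.0.10). The deposited list holds 66954 peaks, with a score, a fold enrichment at the summit, and −log10 p- and q-values for each; the weakest q-value was 0.0493. What the authors removed to make the cleaned list is not given in the sources used here, and no input values or read totals were used. Fragment pileup at each summit and its local background were recovered from the deposited fold enrichment and −log10 p-value, which fix both where the pileup is a whole number. This solved all 66954 peaks (pileup 11 to 293, median 20) and was tested on simulated data. A pileup of 20 carries a Poisson interval of 12.2 to 30.9. The lowest background, 3.45 fragments, was shared by 20.5% of peaks. The best promoter peaks of HOXD11, HOXB7, HOXB8, HOXD4 and HOXA11 were among them. For such peaks the fold enrichment is over this shared floor and not over a value particular to the site.

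TSSs were those of GENCODE 44 mapped back to GRCh37, and the 39 genes had 107 of them, 1 to 12 each. The alternatives were stricter peaks, other promoter windows, the summit in place of any overlap, canonical TSSs, merged peaks and wider clusters. The genes named outside the family came from lists, with up to 4 examples each by fold enrichment. The members and lists were chosen with earlier results of these data known. Python 3.11.15, pandas 2.3.3, SciPy 1.17.1 and pysam 0.24.0 were used. A few genes and sequences are not reported here, although they remain in the counts.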

Additional observations from a re-analysis of the deposited data

How the results depend on the processing

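No paired analysis was possible because the ChIP and the input were sequenced from 1 library each. The difference between HOX and all protein-coding genes in the share bound was 4.69 percentage points (interval -12.2 to 19.4). It changed sign when peaks needed a −log10 q of at least 5 (-2.13) or a fold enrichment of at least 5 (-0.889). With 5000 bp upstream to 1000 bp downstream of a TSS it was 17.7. The 500-bp window gave 0.829, the summit in the window 0.337 and canonical TSSs only 3.07. All HOX genes, CpG-rich or not, against CpG-rich protein-coding genes gave -16.4. Among CpG-rich genes only, 59.3% of HOX genes were bound, beside 80.5%. Without HOXA, an alternative chosen after seeing the data, the difference was 26.3. The 89 peaks in the clusters became 56 with −log10 q of at least 5 and 30 with a fold enrichment of at least 5, fewer by construction. Their density then fell to 1.87 per 100 kb in HOXA under either threshold. It fell to 9.49 and 4.99 in HOXB, to 13.7 and 6.83 in HOXC, and to 19.4 and 10.2 in HOXD. HOXA remained the lowest. The whole list shrank too, to 34580 peaks (51.6%) by q-value and 16076 (24.0%) by height, beside 62.9% and 33.7% in the clusters. In HOXA, 2 of 6 peaks (33.3%) passed the height threshold. The thresholded densities therefore cannot be set against the genome's 2.36 per 100 kb, which counts every peak. The number of bound HOX genes, 25, ranged from 19 to 31 over the alternatives. HOXA11 was lost with either threshold, the 500-bp window or the summit required, whereas a window of 5000 bp upstream to 1000 bp downstream added 6 genes, among them HOXA2, HOXA3, HOXA10, HOXA13 and HOXD12. The posterior minus anterior difference, 37.5 points, stayed positive (12.5 to 50 points) and lay within its own counting interval in all alternatives. With 1 library, spread between experiments is unknown, and small pileups, such as 15 fragments at HOXA11, limit the precision of single peaks.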

Other observations

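Homeobox genes outside the HOX clusters were counted in the same way, beside the 59.4% of protein-coding genes with a promoter peak. Among the HOX cofactors of the PBX, MEIS and PKNOX families, whose proteins bind DNA together with HOX proteins, 7 of 9 were bound (77.8%, interval 40.0 to 97.2). MEIS1 had the strongest peak, 7935 bp wide with a fold enrichment of 15.1 from 66 fragments, followed by PKNOX1 (12.2) and MEIS2 (8.99), and PKNOX2 and MEIS3 had no promoter peak. None of the 6 ParaHox genes, the closest relatives of the HOX clusters (GSX1, GSX2, PDX1, CDX1, CDX2 and CDX4), was bound, which allows a share of up to 45.9%.

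The DLX genes, regulators of forebrain and craniofacial development, were bound at 5 of 6, with DLX1 (16.3), DLX2 (10.4, in a peak of 8751 bp), DLX5 (7.94) and DLX4 (6.25). Of the 6 IRX genes 2 were bound, IRX5 (11.0) and IRX3 (9.66). Of 30 other homeobox regulators 21 were bound (70.0%, interval 50.6 to 85.3). The strongest were OTX2 (15.7), EMX1 (11.5), NKX2-2 (11.3) and ISL1 (11.0). NKX2-2, a known EWSR1-FLI1 target in Ewing sarcoma, lay under a peak of 14766 bp, which ranked 8 by width in a list whose widest peak was the one over HOXD8 and HOXD9.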
